A study of Danio rerio with 2 samples.

Results

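The ion channel genes of the zebrafish heart transcriptome were examined in 2 libraries, control and MZ*smyd4* L544Efs*1, to compare the potassium, sodium, pacemaker and calcium channel groups. A gene was taken as a member when its Ensembl symbol began with *kcn* and a family letter, with *hcn*, with *scn* and a number followed by a or b, or with *cacna*, *cacnb* or *cacng*. This rule used names only and no measured value. It found 192 members among 33396 listed genes, namely 126 potassium channel genes, 12 sodium channel genes, 6 HCN (pacemaker) channel genes and 48 calcium channel genes. The rule is broader than voltage gating. It took 70 genes for voltage-gated pores, 64 genes for accessory subunits, and 58 genes for potassium pores that have no voltage gate or are opened mainly by calcium or sodium. The rule did not take the sodium channel pore genes *scn1laa* (0.240 FPKM in control against 0.393 FPKM in the library labelled mutant) and *scn1lab* (0.4997 and 0.120 FPKM), whose symbols carry an added letter.

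Both libraries were made from hearts at 72 hours post-fertilization (hpf), dissected from pooled embryos under the green fluorescence of a reporter that is active in cardiomyocytes. The control is recorded as wild type of the Tu strain, whereas the methods name the reporter line Tg(cmcl2:GFP) for it. The mutant is recorded as Tu and homozygous for *smyd4* L544Efs*1, a frameshift allele made with CRISPR/Cas9, and the methods describe such embryos as lacking the maternal as well as the zygotic product. With 1 library per group no statistical test of the genotype was possible, and every interval given covers counting error only, not the variation between hearts, dissections or libraries.

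Voltage-gated channels are membrane pores that open or close when the voltage across the membrane changes. In the heartbeat, HCN channels carry the inward current that brings pacemaker cells to threshold, sodium and calcium channels carry the upstroke, L-type calcium current triggers contraction, and potassium channels end the action potential. Inward rectifiers hold the resting voltage, and accessory subunits set how many pores reach the membrane and how they gate. Many of the same families also serve neurons, skeletal muscle and ion-transporting epithelia.

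The values are FPKM, in which the reads of a gene are divided by its length and by the size of the library. Each difference is log2(FPKM + 1) of the library labelled mutant minus control. It understates the change of low genes. A gene was counted only if it reached 1 FPKM in either library, and was called higher or lower when the difference exceeded 1 in size. The totals recovered from the values were 18840114 reads for control against 17960132 for the library labelled mutant. *smyd4*, the targeted gene, was not lower as deposited, at 2.42 FPKM in each library (111 and 106 reads, ratio 1.00, exact 95% interval 0.760 to 1.32). The deposited level of the targeted gene therefore goes against the label. Every direction given here rests on the label, and the second library is named by it throughout. The median difference of all 17800 genes that reached 1 FPKM was 0.49, and TMM scaling, which assumes that most genes do not differ, moved it to 0.04. Values on that scale are therefore given beside the deposited ones. With TMM scaling the ratio of *smyd4* was 0.70, below control, though the gene was still present in the library labelled mutant (106 reads). Markers of several tissues differed between the libraries. Of 12 cardiomyocyte marker genes that reached 1 FPKM 7 were higher and 0 lower. All 14 listed ones summed to 2496 FPKM in control against 6341 in the library labelled mutant. Of 18 neural marker genes that reached 1 FPKM 0 were higher and 7 lower, and all 19 listed ones summed to 1058 and 783 FPKM. All 14 listed lens and retina markers summed to 1.28 and 65.2 FPKM, with 4 of the 5 that reached 1 FPKM higher. All 6 listed liver and yolk markers summed to 31522 and 6943 FPKM, with 5 of the 5 that reached 1 FPKM lower on each scale. In such bulk tissue, fewer cells of a type and less RNA per cell cannot be told apart.

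The channel genes were low in both libraries. Of the 192 members, 22 were at 0 in both, 100 were above 0 but under 1 FPKM in both, and 70 (36.5%) reached 1 FPKM, against 53.3% of all genes. In control 56 members reached 1 FPKM, and in the library labelled mutant 41 did (29.2% and 21.4%), whereas the share of all genes went the other way (46.2% and 49.2%). The members together held 210 FPKM in control against 196 FPKM in the library labelled mutant, 0.0258% and 0.0281% of the summed FPKM of all genes. No member exceeded 15.7 FPKM. The highest in control was *cacng2* (ENSDARG00000102376) at 10.29 FPKM, a gamma-type subunit known in mammals as stargazin, which escorts glutamate receptors in neurons. The highest in the library labelled mutant was *kcnj1* (ENSDARG00000090866) at 15.7 FPKM, an inward rectifier known in mammals from the kidney tubule. Neither is a pore of the classical cardiac action potential. Among the 70 members that reached 1 FPKM, the reads over both libraries ran from 26 to 727. Where several identifiers share a symbol, the identifier is printed; this concerned 69 members with 32 symbols.

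Of the 70 members, 13 (18.6%) were higher and 16 (22.9%) were lower in the library labelled mutant, whereas among all genes that reached 1 FPKM 33.3% were higher and 11.6% lower. The median of the members was -0.37, against 0.49 for all genes. With TMM scaling 9 of 74 members were higher (12.2%) and 29 lower (39.2%), against 21.2% and 19.3% of all genes, and the median of the members was -0.69. With upper-quartile scaling the counts were 8 and 33 of 74 members (10.8% and 44.6%), against 17.3% and 23.1% of all genes. Since the members lie at the low end, the same shares were taken among the 11432 genes whose highest FPKM lay between 1 FPKM and that of the highest member. Of these 26% were higher and 9.53% lower as deposited, and 15.2% and 16.5% with TMM scaling. By this filter the members had fewer higher and more lower calls than either set of genes, as deposited and with TMM scaling. Of the 16 lower members 13 reached 1 FPKM in control only, and of the 13 higher members 8 reached it in the library labelled mutant only. Among the 27 members with at least 1 FPKM in both libraries, 5 were higher (18.5%) and 3 lower (11.1%) and the median was 0.02, against 32.9% and 10.3% of the 14056 genes that met this filter, so that the larger share of lower calls rests on members that were under 1 FPKM in the library labelled mutant. The plot of all members in both libraries shows the 2 sets on opposite sides of the line of equal values.

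**Figure D1:**
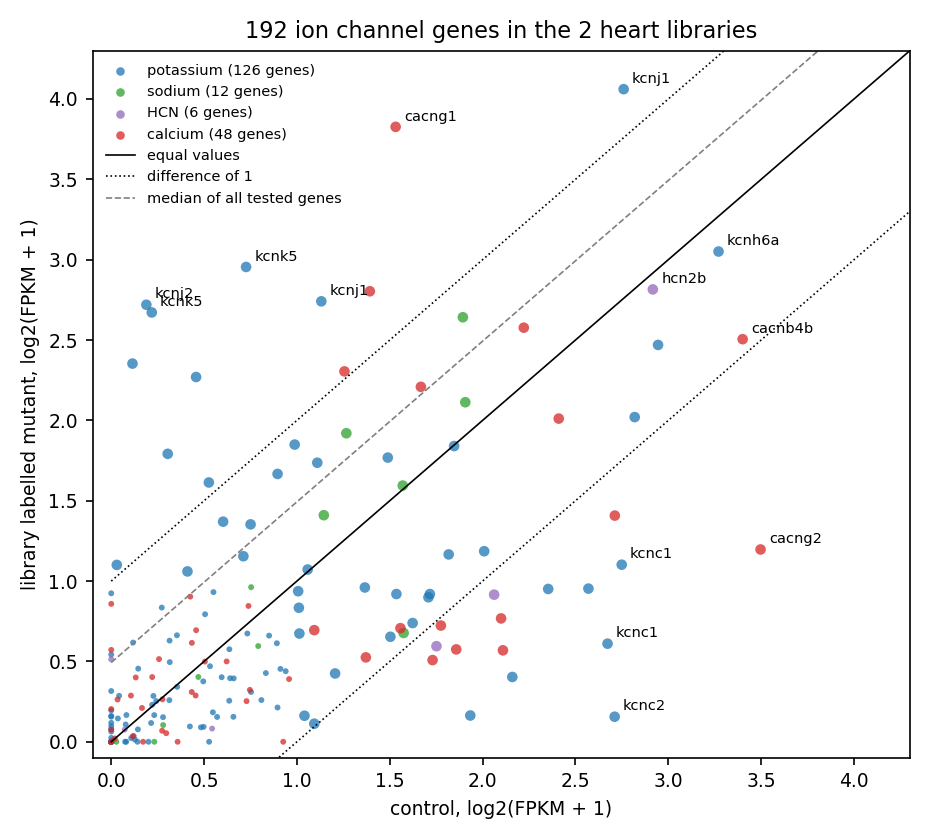
Level of each of the 192 ion channel genes in control (horizontal axis) and in the library labelled mutant (vertical axis), both as log2(FPKM + 1). Each point is 1 gene, coloured by group, and small points are genes under 1 FPKM in both libraries. The solid line marks equal values, the dotted lines a difference of 1 in either direction and the dashed line the median difference of all tested genes (0.49). *kcnj1*, *kcnk5*, *kcnj2* and *cacng1* lie above the upper dotted line, and *cacng2*, *kcnc1* and *kcnc2* below the lower one, while *hcn2b* and *kcnh6a* lie near equality.

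The calls were read for each ion in turn. Of 44 potassium channel genes 10 were higher and 7 lower (22.7% and 15.9%, median -0.20). Of 6 sodium channel genes none passed the threshold (median 0.24), and of 3 HCN genes 2 were lower (median -1.15). Of 17 calcium channel genes 3 were higher and 7 lower (17.6% and 41.2%, median -0.85). Among all genes that reached 1 FPKM 33.3% were higher and 11.6% lower (median 0.49). The sums of the groups were taken over all their listed genes, also those under 1 FPKM. Potassium channel genes summed to 115.6 FPKM in control against 115.9 in the library labelled mutant, sodium channel genes to 14.2 and 17.5, HCN genes to 12.6 and 7.97, and calcium channel genes to 67.5 and 55.1. With TMM scaling 7 of 46 potassium channel genes were higher and 15 lower (15.2% and 32.6%, median -0.66). Of 6 sodium channel genes 1 was then lower (median -0.11), and of 3 HCN genes 2 were lower (median -1.43). Of 19 calcium channel genes 2 were higher and 11 lower (10.5% and 57.9%, median -1.08). Among all genes 21.2% were higher and 19.3% lower with this scaling. On that scale all 4 medians were below 0, and that of all genes was 0.04. With at least 1 FPKM in both libraries 3 of 9 calcium channel genes were higher (33.3%) and 2 lower (22.2%), against 32.9% and 10.3% of all genes. The median of these calcium channel genes turned to 0.36, beside 0.45 for all genes that met this filter. The sodium and HCN counts rest on so few genes that no order between those groups can be read from them.

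The members were also sorted by what they encode; this sorting was made after the values had been seen, and it is a description. Of 20 voltage-gated pore genes that reached 1 FPKM 0 were higher and 8 lower (40%, median -0.83). Beside these, 33.3% of all genes were higher and 11.6% lower. The summed level of all 70 genes of the class was 84.2 FPKM in control against 43.8 in the library labelled mutant. Of 17 potassium pore genes without a voltage gate 8 were higher and 1 lower (median 0.65), and their summed level was 35.8 and 71.5 FPKM. The 8 higher genes were 5 *kcnj1* copies, 2 *kcnk5* copies and *kcnj2*. The 47 genes of the class that carry other symbols were set apart by leaving out the symbols of all higher genes. That choice fixed their count of 0 higher in advance. Of the 9 that reached 1 FPKM 1 was lower. The 47 genes summed to 26.3 FPKM in control and 20.8 in the other library, a sum that follows the same choice. Accessory subunits lay between, with 5 of 33 higher and 7 lower (median -0.40). With TMM scaling 13 of 21 voltage-gated pore genes were lower (61.9%) and 0 higher. Of 18 other potassium pore genes 7 were higher (38.9%) and 3 lower (16.7%), against 21.2% and 19.3% of all genes. Most of the calls as deposited rest on genes under 1 FPKM in 1 of the libraries. Among genes with at least 1 FPKM in both, 0 of 7 voltage-gated pore genes were higher and 1 lower (median -0.22). Of 5 other potassium pore genes 2 were then higher and 0 lower. Of all genes that met this filter 32.9% were higher and 10.3% lower (median 0.45). The plot of shares sets these classes beside all genes.

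**Figure D2:**
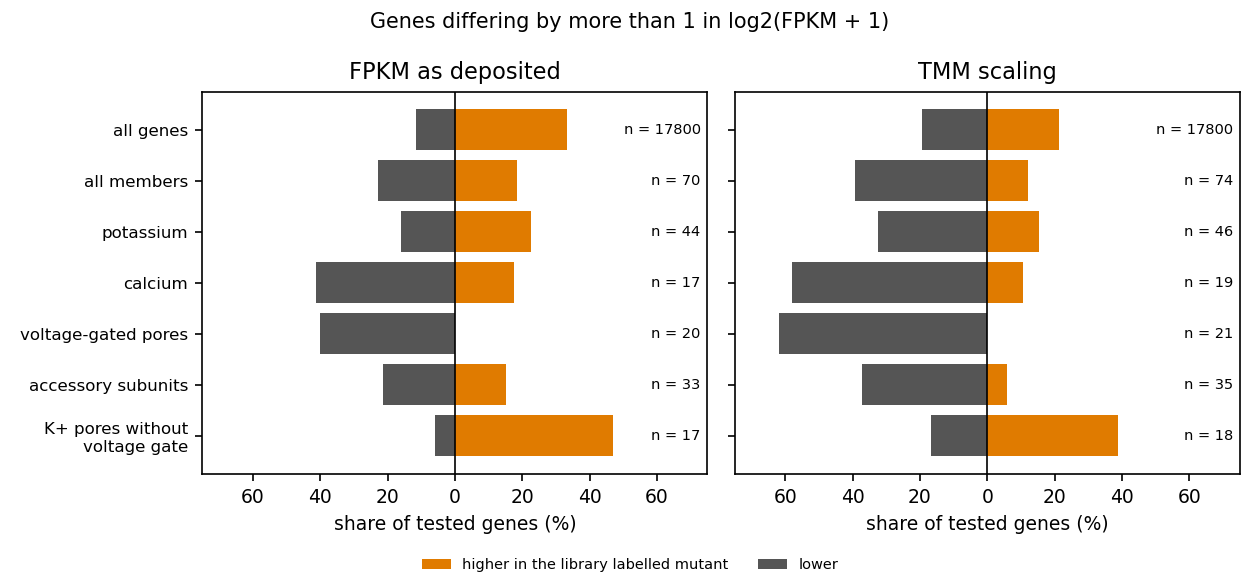
Share of tested genes (%) that were higher (to the right) or lower (to the left) by more than 1 in log2(FPKM + 1) in the library labelled mutant, for FPKM as deposited and after TMM scaling; n is the number of tested genes. Among all genes 33.3% were higher and 11.6% lower as deposited. Voltage-gated pores have lower genes only (8 of 20), and potassium pores without a voltage gate have 8 of 17 higher, all of them copies of *kcnj1*, *kcnk5* or *kcnj2*, and 1 lower. With at least 1 FPKM in both libraries 1 of 7 voltage-gated pore genes was lower, and 2 of 5 potassium pore genes without a voltage gate were higher. Of all genes with that filter 32.9% were higher and 10.3% lower. The sodium and HCN groups are not drawn because they hold 6 and 3 tested genes.

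Among voltage-gated potassium channels the Kv3 genes stood lowest relative to control. Kv3 channels, encoded by *kcnc1* to *kcnc4*, open at strongly positive voltages and close quickly, and are known in mammals for letting fast-spiking neurons fire at high rates. All 5 genes that reached 1 FPKM were below control, 4 of them past the threshold, beside 33.3% of all genes higher and 11.6% lower. Only *kcnc1* (ENSDARG00000051852) of these 5 reached 1 FPKM in the library labelled mutant. The summed level of the 6 Kv3 genes was 22.4 FPKM in control against 3.19 in the library labelled mutant. *kcnc2* had 5.55 FPKM in control against 0.114 in the library labelled mutant (51 and 1 reads), a difference of -2.55 and a ratio of 0.0206 (exact Clopper-Pearson 95% interval 0.000511 to 0.120). *kcnc1* (ENSDARG00000032959) had 5.38 and 0.527 FPKM (182 and 17 reads, difference -2.06), and *kcnc1* (ENSDARG00000051852) had 5.72 and 1.15 FPKM (377 and 72 reads, difference -1.65). *kcnc3b* had 3.47 and 0.322 FPKM (79 and 7 reads, difference -1.76). The fifth gene, *kcnc3a*, had 2.27 and 0.865 FPKM on 22 and 8 reads, and its difference of -0.81 became -1.11 with TMM scaling. Only *kcnc4*, at 0.030 and 0.219 FPKM on 1 and 7 reads, was above control, and it did not reach 1 FPKM. Of the 18 neural markers 7 were lower and 11 within the threshold, with *elavl4* at 66.2 FPKM in control against 27.4 in the library labelled mutant and *gap43* at 84.7 and 17.1 FPKM, but *elavl3* at 33.3 and 30.1 FPKM and *map2* at 18.3 and 21.9 FPKM. None of the matched neural markers was at 0 in either library, and the part of neural RNA in the Kv3 values was not tested.

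The *kcnh* genes encode the ERG, EAG and ELK channels, of which ERG carries the rapid delayed rectifier current that ends the cardiac action potential. In zebrafish *kcnh6a* is the main ERG gene of the heart, and it was the highest potassium channel gene in control. It had 8.65 FPKM in control against 7.29 in the library labelled mutant (386 and 310 reads), a difference of -0.22 and a ratio of 0.842 (0.723 to 0.981); with TMM scaling the difference was -0.68 and the ratio 0.589. With the deposited values it lay within the threshold. *kcnh7*, whose mammalian counterpart is an ERG channel of the nervous system, had 4.94 and 0.936 FPKM (343 and 62 reads), a difference of -1.62 and a ratio of 0.190. The other 10 *kcnh* genes were under 1 FPKM, among them *kcnh2* at 0 and 0.117 FPKM (0 and 1 read) and *kcnh6b* at 0 in both. The 2 ERG-type genes above 1 FPKM therefore differed in size within the same libraries, 1 near equality and 1 past the threshold.

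Kv7 channels carry slow potassium currents, the cardiac form being the slow delayed rectifier. *kcnq1.1*, which encodes that cardiac pore, had 0.983 FPKM in control against 2.60 in the library labelled mutant (42 and 106 reads), a difference of 0.86 (0.55 with TMM scaling) and a ratio of 2.65 (1.84 to 3.88). *kcnq5* was level, with 1.08 FPKM in control and a ratio of 1.02, and *kcnq5a* had 2.28 and 0.891 FPKM, a difference of -0.80. None of the 3 Kv7 genes above 1 FPKM passed the threshold. *kcnma1*, the pore of the BK channel that opens with voltage and calcium together, had 6.06 and 3.06 FPKM, a difference of -0.80 that became -1.21 with TMM scaling. Of the Kv1 genes, *kcna1* (ENSDARG00000062942) had 1.83 and 0.573 FPKM (difference -0.85). The Kv2 and Kv4 genes, which in mammals carry delayed rectifier and transient outward currents, did not reach 1 FPKM in either library. For example, *kcnd2* had 0.918 and 0.356 FPKM (46 and 17 reads, ratio 0.388, 0.208 to 0.689), and *kcnd3* had 0.554 and 0.490 FPKM (32 and 27 reads).

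Silent Kv subunits do not form channels alone and change the gating of Kv2 pores. Here they went both ways. *kcnf1* (ENSDARG00000027285) had 2.82 FPKM in control against 0.120 in the library labelled mutant (74 and 3 reads), a difference of -1.77 and a ratio of 0.0425 (0.00857 to 0.129). *kcng4b* had 0.440 and 2.06 FPKM, a difference of 1.09 that was 0.84 with TMM scaling. Other accessory subunits of potassium channels mostly stayed within the threshold. *kcne4*, a single-span subunit that damps Kv currents, had 3.02 and 1.27 FPKM (199 and 80 reads, difference -0.82, -1.16 with TMM scaling). *kcnip1b*, a calcium-binding partner of Kv4 pores, was level at 2.60 and 2.58 FPKM, and *kcnab2*, a Kv beta subunit, had 2.52 and 1.24 FPKM (difference -0.65). None of the 4 tested *kcnab* and 4 tested *kcnip* genes passed the threshold as deposited. The BK beta gene *kcnmb2* (ENSDARG00000001712) rested on 1 read in control against 52 in the library labelled mutant (0.021 and 1.14 FPKM, difference 1.07). With TMM scaling (difference 0.93) it no longer reached 1 FPKM in either library and was not counted.

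**Figure D3:**
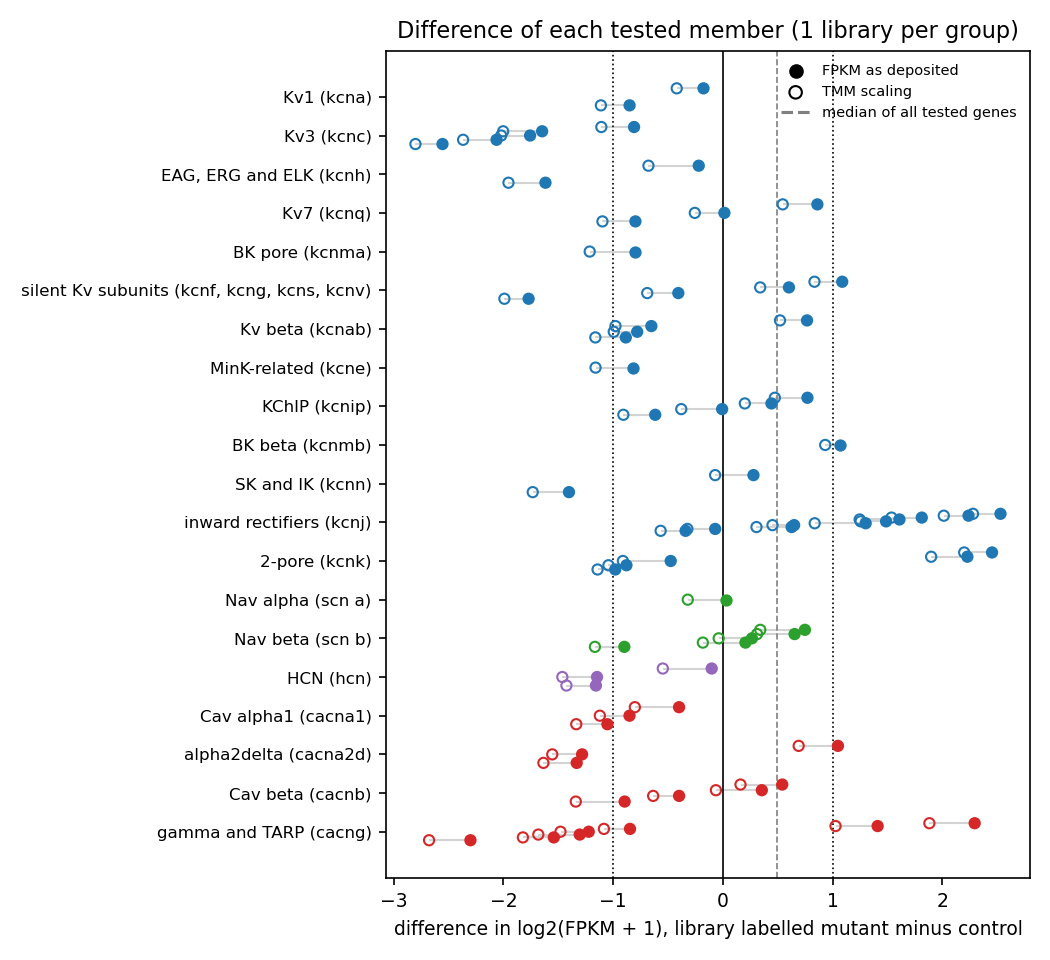
Difference in log2(FPKM + 1), library labelled mutant minus control, of each tested member by subfamily. Filled points are FPKM as deposited, open points of the same gene are after TMM scaling, dotted lines mark the threshold of 1 and the dashed line the median of all tested genes (0.49). The 5 Kv3 genes lie left of 0 and 6 of the 10 inward rectifier genes right of 1, while calcium channel gamma genes lie on both sides.

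The calcium-activated potassium channels of the *kcnn* family damp firing after calcium entry. *kcnn1a* was the highest of them in control and was lower, with 4.11 FPKM in control against 0.933 in the library labelled mutant (231 and 50 reads, difference -1.40, ratio 0.227, 0.164 to 0.309). *kcnn4*, which in mammals is found in blood cells and epithelia, had 1.81 and 2.41 FPKM (difference 0.28). The other members, *kcnn1b*, *kcnn2* and *kcnn3*, were under 1 FPKM, and so were the 3 sodium-activated *kcnt* genes.

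The inward rectifiers of the *kcnj* family went the opposite way to the Kv3 genes. These channels pass potassium more easily inwards than outwards; different members set the resting voltage, answer to acetylcholine or ATP, or secrete potassium across epithelia. Of 29 genes 10 reached 1 FPKM, and 6 were higher and 0 lower, beside 33.3% and 11.6% of all genes. The summed level was 15.9 FPKM in control against 46.2 in the library labelled mutant. Most of this came from identifiers named *kcnj1*, of which there were 7. Their sum was 8.56 and 32.9 FPKM, and the other 22 *kcnj* genes summed to 7.33 and 13.3 FPKM. Of the 5 other *kcnj* genes that reached 1 FPKM 1 was higher (20%), a smaller share than among all genes, and 0 were lower.

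The 5 *kcnj1* identifiers that reached 1 FPKM were all higher, beside 33.3% of all genes higher and 11.6% lower. ENSDARG00000090866 had 5.77 FPKM in control against 15.7 in the library labelled mutant (147 and 381 reads, difference 1.30, ratio 2.72, 2.24 to 3.31), and was within the threshold with TMM scaling (0.84). ENSDARG00000089060 had 1.19 and 5.68 FPKM (29 and 132 reads, difference 1.61), and ENSDARG00000086248 had 0.373 and 3.82 FPKM (9 and 88 reads, difference 1.81). These copies are similar genes whose reads may have been divided among them by the counting, so the sum is firmer than any single value. ENSDARG00000088484 had 0.235 and 2.46 FPKM (8 and 80 reads, difference 1.49), and ENSDARG00000090635 had 0.0825 and 4.11 FPKM on 2 and 95 reads (difference 2.24, ratio 49.8, 13.4 to 417). The remaining pair, ENSDARG00000002666 at 0.243 and 0.547 FPKM and ENSDARG00000091232 at 0.662 and 0.595 FPKM, stayed under the limit. In zebrafish *kcnj1* copies are known from skin ionocytes, cells that exchange salts with the water. A list of 19 ionocyte marker genes, written after these values had been seen, had 4 higher and 4 lower of 15 that reached 1 FPKM (summed level of all 19 genes 409 FPKM in control against 841 in the library labelled mutant). An ammonia transporter gene of such cells, *rhcg* (ENSDARG00000003203), was at 9.41 and 246.1 FPKM, whereas the ionocyte factor *foxi3a* was at 54.6 and 15.0 FPKM and the calcium channel *trpv6* at 15.3 and 6.24 FPKM. Of the ionocyte markers *slc12a10.3* was at 0 in both libraries, and the part of ionocyte RNA in the *kcnj1* values was not tested.

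*kcnj2* (ENSDARG00000019418) had the largest positive difference of all members. It encodes Kir2.1, the pore of the current that holds the resting voltage of cardiac and skeletal muscle cells. It had 0.1401 FPKM in control against 5.59 in the library labelled mutant (4 and 152 reads), a difference of 2.53 (2.28 with TMM scaling) and a ratio of 39.9 (15.3 to 148). The other *kcnj2* copy (ENSDARG00000104389) had 0 and 0.085 FPKM, on 0 and 2 reads. *kcnj11*, the pore of the ATP-sensitive channel, had 1.16 and 2.33 FPKM (difference 0.63), and *kcnj5*, a subunit of the acetylcholine-gated atrial channel, had 0.329 and 1.08 FPKM (difference 0.65). Its partner *kcnj3* (ENSDARG00000077165) had 1.01 and 0.914 FPKM (difference -0.07). None of these 3 genes passed the threshold. *kcnj8*, which pairs with the sulfonylurea receptor in vessels, was under 1 FPKM at 0.085 and 0.534 FPKM.

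The *kcnk* genes encode background potassium channels that are open at rest. Both *kcnk5* copies, whose mammalian counterpart TASK-2 responds to alkaline conditions in epithelia, were higher. The first (ENSDARG00000012390) had 0.654 FPKM in control against 6.75 in the library labelled mutant (31 and 305 reads, difference 2.23, ratio 10.32, 7.12 to 15.5), and the second (ENSDARG00000023587) had 0.163 and 5.37 FPKM (6 and 188 reads, difference 2.45, ratio 32.9, 14.8 to 90.7). The copies thus differed in the same direction, with a sum of 0.82 FPKM in control against 12.1. *kcnk1a*, of the weakly rectifying TWIK type, was the highest *kcnk* gene in control and did not pass the threshold, with 6.70 and 4.54 FPKM (difference -0.48, -0.91 with TMM scaling). *kcnk9* and *kcnk15*, of the acid-sensitive TASK type, lay just within the threshold at -0.98 (1.13 and 0.081 FPKM) and -0.88 (1.06 and 0.119 FPKM), and passed it with TMM scaling. *kcnk18* was seen in 1 library only, with 0 reads in control against 20 in the library labelled mutant, which is at least 6.99-fold higher against a floor of 3 reads, although it did not reach 1 FPKM. *kcnk3*, an acid-sensitive channel of the mammalian heart, had at most 2 reads in either copy.

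Sodium channel genes showed no call in either direction. The pores carry the fast upstroke, and the beta subunits anchor them and tune their gating. Of the 6 alpha genes of the rule, only *scn4ab* reached 1 FPKM, and it was level, with 1.97 FPKM in control against 2.02 in the library labelled mutant (225 and 220 reads, difference 0.02, ratio 1.03, 0.848 to 1.24). It is known from skeletal muscle. Beta subunits took most of the sum, with 10.8 FPKM in control against 14.1 in the library labelled mutant over 6 genes. *scn4b* (ENSDARG00000099031) had 2.72 and 5.24 FPKM (106 and 195 reads, difference 0.75, ratio 1.93, 1.52 to 2.47) and was the highest sodium channel gene in the library labelled mutant. *scn3b* had 2.75 and 3.33 FPKM (85 and 98 reads, difference 0.21), and the other *scn4b* (ENSDARG00000060319) had 1.21 and 1.66 FPKM (difference 0.27). Against these, *scn2b*, a beta subunit best known from the brain, was below control with 1.98 and 0.599 FPKM (52 and 15 reads, difference -0.90, ratio 0.303, 0.158 to 0.546), and passed the threshold with TMM scaling (-1.17). The median of the group changed sign with that scaling, from 0.24 to -0.11.

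HCN channels open when the membrane becomes more negative and are regulated by cyclic AMP; *HCN4* is the main form of the mammalian sinoatrial node. *hcn2b* and *hcn4* did not differ alike. *hcn2b* was the highest in both libraries, with 6.55 FPKM in control against 6.04 in the library labelled mutant (387 and 340 reads, difference -0.10, ratio 0.922, 0.794 to 1.07). Its difference with TMM scaling was -0.55. *hcn4* (ENSDARG00000061685) was lower, with 3.18 and 0.886 FPKM (203 and 54 reads, difference -1.15, ratio 0.279, 0.203 to 0.378). The interval of this ratio does not overlap that of *hcn2b*, on counting error alone. The second *hcn4* identifier (ENSDARG00000074419) had 0.457 and 0.058 FPKM on 41 and 5 reads, below the limit and in the same direction. *hcn3* was at 0.052 and 0.054 FPKM, and *hcn5* had 0 and 11 reads (0 and 0.427 FPKM), at least 3.85-fold higher against a floor of 3 reads. *hcn2b* thus made up more of the HCN sum in the library labelled mutant, where the sum was 7.97 FPKM, than in control, where it was 12.6 FPKM.

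Genes for pacemaker cell identity did not follow *hcn4*. The factor gene *shox2*, needed for the sinus node in mammals, had 4.65 FPKM in control against 24.6 in the library labelled mutant, and *isl1* had 3.69 and 17.1 FPKM. *tbx18*, of the sinus horns, was at 8.44 and 6.83 FPKM (difference with TMM scaling -0.73) and *tbx3* at 9.98 and 9.91 FPKM (-0.48). They belong to a list of genes of the action potential, the calcium cycle and conduction, of which 46 reached 1 FPKM. Of these 17 were higher and 2 lower (37.0% and 4.35%, median 0.45), beside 33.3% and 11.6% of all genes. Among the higher genes were the calcium store protein *casq2* at 14.6 and 107.4 FPKM and the gap junction gene *gja1* at 9.36 and 43.0 FPKM. *popdc2*, a cyclic AMP-binding protein of the conduction system, was also higher, at 7.98 and 46.1 FPKM. The other 27 genes were within the threshold. They include the calcium release gene *ryr2* at 0.43 and 1.52 FPKM (difference 0.82), *atp2a2a* at 128.5 and 90.7 FPKM and *jph2* at 5.47 and 5.40 FPKM. The 2 lower genes were *cav3*, a caveolin of muscle, at 127.0 and 50.8 FPKM, and *gjd2*, a gap junction gene of neurons, at 3.08 and 0.65 FPKM. With TMM scaling 9 of 48 were higher and 7 lower (18.8% and 14.6%, median -0.10), beside 21.2% and 19.3% of all genes. The further lower ones were *atp2a2a* (-1.01), *camk2d2* (-1.01), *ank2b* (-1.04), *ank3* (-1.20) and *ank3b* (-1.34).

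Calcium channels consist of an alpha1 pore with a beta subunit inside, an alpha2delta subunit outside and, in some tissues, a gamma subunit. The alpha1 genes were low. None of the 7 L-type genes reached 1 FPKM, and their sum was 1.87 FPKM in control against 2.66 in the library labelled mutant. *cacna1c*, the L-type pore of the zebrafish heartbeat, had 0.351 and 0.532 FPKM (45 and 65 reads), and *cacna1da*, known in mammals from pacemaker cells and hair cells, had 0.678 and 0.251 FPKM. The T-type pore *cacna1g*, which opens near the resting voltage and takes part in pacemaking in mammals, was the highest alpha1 gene in both libraries, with 4.31 and 3.03 FPKM (112 and 75 reads, difference -0.40, ratio 0.702, 0.517 to 0.949). The P/Q-type genes of presynaptic terminals were the only other alpha1 genes above 1 FPKM. *cacna1a* had 2.42 and 0.651 FPKM (difference -1.05) and *cacna1aa* 1.94 and 0.632 FPKM (difference -0.85), and both passed the threshold with TMM scaling. Of the 3 alpha1 genes 1 was therefore lower as deposited, and this was a neuronal one.

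Beta subunits bring the pore to the membrane. None of the 4 *cacnb* genes above 1 FPKM passed the threshold. *cacnb4b* was the highest, with 9.56 FPKM in control against 4.68 in the library labelled mutant (493 and 230 reads, difference -0.89, ratio 0.489, 0.417 to 0.573), and passed it with TMM scaling (-1.34). *cacnb1*, the beta subunit of skeletal muscle, had 3.66 and 4.97 FPKM (difference 0.36), and *cacnb4* had 2.18 and 3.62 FPKM (difference 0.54). *cacnb2a*, of the cardiac type, had 1.13 and 0.618 FPKM (difference -0.40). The sum of the beta genes was 17.6 and 15.3 FPKM.

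The 3 alpha2delta genes that reached 1 FPKM went both ways. *cacna2d1a*, whose mammalian counterpart serves heart and skeletal muscle, was higher with 1.39 FPKM in control against 3.94 in the library labelled mutant (92 and 249 reads, difference 1.05, ratio 2.84, 2.23 to 3.65), but was within the threshold with TMM scaling (0.69). Both genes of the *cacna2d2* type, known in mammals from the cerebellum, were lower. *cacna2d2a* was also on the list of cardiac channels used to name genes. *cacna2d2a* had 3.29 and 0.702 FPKM (314 and 64 reads, difference -1.33, ratio 0.214) and *cacna2d2* had 2.62 and 0.489 FPKM (difference -1.28, ratio 0.186). Their sum was 5.91 FPKM in control against 1.19 in the library labelled mutant.

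The *cacng* genes gave the widest spread among calcium channel genes, with 2 of 7 higher and 4 lower. These are 28.6% and 57.1%, beside 33.3% and 11.6% of all genes. *cacng1* (ENSDARG00000008772), the gamma subunit of the skeletal muscle L-type channel, was higher, with 1.89 FPKM in control against 13.2 in the library labelled mutant (71 and 472 reads, difference 2.29, ratio 6.97, 5.42 to 9.08). *cacng6a*, of the same muscle type, was also higher, with 1.63 and 5.98 FPKM (71 and 249 reads, difference 1.41, 1.03 with TMM scaling), whereas its paralog *cacng6b* was lower, with 5.55 and 1.65 FPKM (148 and 42 reads, difference -1.30). The paralogs thus stood in opposite order in the 2 libraries. Skeletal muscle markers also went both ways, with 4 of 13 higher and 2 lower (summed level 4757 FPKM in control against 2936 in the library labelled mutant); *myod1* was at 9.05 and 44.9 FPKM and *ckma* at 2075 and 627.9 FPKM. None of them was at 0, and the part of skeletal muscle RNA in the *cacng1* and *cacng6* values was not tested.

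The *cacng* genes that escort glutamate receptors at synapses in mammals, *cacng2*, *cacng3*, *cacng4* and *cacng8*, were lower in sum. Their 7 identifiers summed to 18.6 FPKM in control against 3.27 in the library labelled mutant. Of the 4 that reached 1 FPKM 3 were past the threshold, beside 33.3% of all genes higher and 11.6% lower. Only *cacng2* (ENSDARG00000102376) of these 4 reached 1 FPKM in the library labelled mutant. *cacng2* (ENSDARG00000102376) had 10.29 and 1.29 FPKM (426 and 51 reads, difference -2.30, ratio 0.126, 0.0920 to 0.168). The other *cacng2* (ENSDARG00000032565) had 3.32 and 0.484 FPKM (difference -1.54), and *cacng3* had 2.32 and 0.422 FPKM (difference -1.22). The fourth, *cacng8* (ENSDARG00000070626), had 1.59 and 0.439 FPKM and a difference of -0.85. *cacng4* was above control on 7 and 13 reads (0.165 and 0.322 FPKM), under the limit. *cacng7* (ENSDARG00000070624) had 29 and 0 reads (0.900 and 0 FPKM), at least 9.22-fold lower against a floor of 3 reads, without reaching 1 FPKM in control. The neural markers given beside the Kv3 genes apply here too, and their part was not tested. The plot of levels sets these genes beside the HCN, sodium and potassium channel genes described above.

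**Figure D4:**
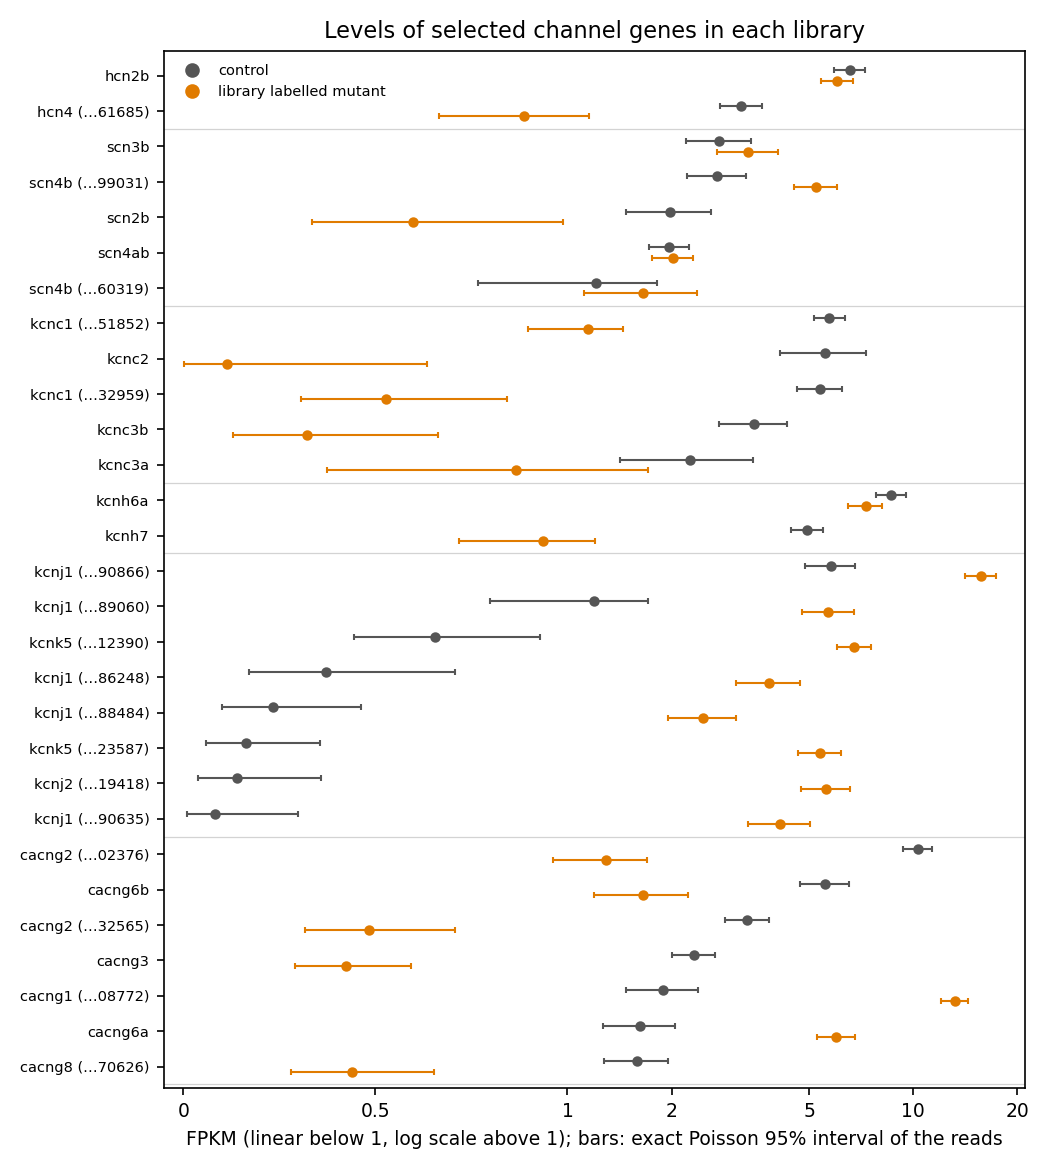
FPKM of selected members in control (grey) and in the library labelled mutant (orange), on an axis that is linear below 1 FPKM and logarithmic above; bars are exact Poisson 95% intervals of the reads and cover counting error only. Lines separate HCN, sodium, Kv3, *kcnh*, *kcnj* with *kcnk*, and *cacng* genes. *hcn2b* and *kcnh6a* lie within the same few FPKM in both libraries, the Kv3 genes and *cacng2* lie far to the left in the library labelled mutant, and *kcnj1*, *kcnj2*, *kcnk5* and *cacng1* far to the right.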

How the data were processed

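RNA was sequenced from hearts at 72 hpf, with 1 control and 1 mutant library, so replicates could be neither compared nor left out. The authors deposited 1 table of FPKM values with no further scaling between libraries; the unit was recognized from the values. The submitters' processing notes name Bowtie2 2.0.6 and TopHat2 2.0.9 without their roles, and the counter, genome build, annotation and use of strand are not given in the sources used here. No coordinates are therefore given, and overlapping genes or near-identical copies may have shared reads.

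Of 33396 identifiers 26433 matched a symbol. Listed marker names were matched by symbol, without the paralog letter or number where needed, so 1 name could take several identifiers. The 14 cardiomyocyte identifiers came from 11 names (10 matched) and the 19 neural ones from 16 names (15 matched). The 14 lens and retina identifiers came from 11 names (10 matched) and the 19 ionocyte ones from 14 names (14 matched). Genes that reached 1 FPKM in control or in the library labelled mutant were tested, and log2(FPKM + 1) was subtracted between the libraries, with a threshold of 1. Library totals were recovered from the ratios of the deposited FPKM values (relative tolerance 1e-11), as the smallest multiple not below the summed reads, and 91.5% and 91.0% of these totals were recovered as reads of genes. The reads and length of each gene are the smallest whole numbers that give its values, so reads may be understated by a common factor and intervals may be too wide. Ratios carry exact Clopper-Pearson 95% intervals, and levels exact Poisson ones. A fold against 0 reads was taken against a floor of 3 reads and is not a lower limit. The procedures were run on data simulated from the recovered reads, lengths and totals. Such a run takes these values as given, so it cannot show that they are the true ones.

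The alternatives were TMM scaling (factor 1.43, trims of 30% and 5%), upper-quartile scaling (factor 1.64), a pseudocount of 0.1 FPKM, no filter, at least 1 FPKM in both libraries and, added after the values had been seen, differences relative to the median of all genes. Members and lists were chosen with earlier results of these data known, the ionocyte list and the sorting into pores and accessory subunits after the values had been seen. Genes were named by a rule: sodium and HCN members with at least 1 FPKM, listed cardiac channels, the 5 largest and 5 smallest differences and the highest gene of each subfamily, 64 genes in all. Other members were named after their values were seen. Some genes that the rule selects are not reported here. Computations used numpy 2.4.6 and scipy 1.17.1 under Python 3.11.15, with pandas 2.3.3 for tables and matplotlib 3.10.9 for plots.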

Additional observations from a re-analysis of the deposited data

How the results depend on the processing

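No paired analysis was possible because each group had 1 library, and no library could be left out. As deposited, 13 members were higher and 16 lower. TMM scaling gave 9 higher and 29 lower, and upper-quartile scaling 8 and 33. Relative to the median of all genes the counts were 7 and 31. Of the 17800 genes that reached 1 FPKM 3319 were higher and 3824 lower on that scale. A pseudocount of 0.1 FPKM raised both counts, to 18 higher and 29 lower, and no share of all genes was taken with it. With at least 1 FPKM in both libraries 5 were higher and 3 lower. For potassium channel genes (10 higher, 7 lower, median -0.20) TMM gave 7 higher and 15 lower (median -0.66). Upper-quartile scaling gave 7 and 19 (-0.74), and the pseudocount 15 and 16. Relative to the median 6 were higher and 18 lower (-0.69). With at least 1 FPKM in both, 2 potassium channel genes were higher and 1 lower. For sodium channel genes (0 and 0, median 0.24) 1 was lower with TMM (-0.11), upper-quartile scaling (-0.24), the pseudocount (0.34) and relative to the median (-0.26). The HCN median (-1.15) was -1.43 with TMM, -1.53 with upper-quartile scaling, -1.73 with the pseudocount, -1.64 relative to the median and -0.10 with at least 1 FPKM in both libraries, where only *hcn2b* remained and 0 were lower. For calcium channel genes (3 higher, 7 lower, median -0.85) 11 were lower with TMM (-1.08), 11 lower and 1 higher with upper-quartile scaling (-1.17), the median was -1.48 with the pseudocount and -1.34 relative to the median of all genes (1 higher), and 2 were lower (median 0.36) with at least 1 FPKM in both. Without a filter the medians were -0.068 for potassium, -0.0015 for sodium, -0.28 for HCN and -0.10 for calcium channel genes, since most members are then near 0. With at least 1 FPKM in both libraries the median of all genes was 0.45. The scalings differ by construction in where they place the median of all genes. Beyond that the cause was not tested. Of the tested genes that the naming rule selects, 5 more passed the threshold and 2 no longer did with TMM scaling, and 6 more and 3 fewer with upper-quartile scaling. The tested members had a median of 71 reads in control and 52.5 in the other library, which limits the levels near 1 FPKM.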

Other observations

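Channel families outside the rule were also read. Of 34 genes of 7 families that reached 1 FPKM, 9 were higher and 4 lower (26.5% and 11.8%, near the 33.3% and 11.6% of all genes). All 81 listed genes, also those under 1 FPKM, summed to 138.9 FPKM in control against 199.9 in the library labelled mutant. The anoctamins, which include calcium-activated chloride channels and lipid scramblases, had 4 of 7 genes higher and 0 lower. All 15 listed anoctamin genes summed to 24.1 and 87.5 FPKM. *ano10* had 8.94 FPKM in control against 44.0 in the library labelled mutant, and *ano9b* had 0.45 and 8.93 FPKM. All 3 genes for the endolysosomal cation channels of the *tpcn* type, which share the fold of the voltage-gated pores, were higher, with *tpcn2* at 0.77 and 7.90 FPKM, *tpcn3* at 0.96 and 6.39 FPKM and *tpcn1* at 1.14 and 5.04 FPKM. They kept this call with TMM scaling.

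The chloride channel and exchanger genes of the *clcn* type went both ways, with *clcn4* at 19.5 and 3.07 FPKM and *clcn6* at 1.11 and 4.60 FPKM. Of 11 TRP channel genes 1 was higher and 2 lower, *trpv4* at 2.33 and 8.05 FPKM, *trpc1* at 1.34 and 0.12 FPKM and *trpv6* at 15.3 and 6.24 FPKM. None of the tested ryanodine receptor, inositol trisphosphate receptor and acid-sensing channel genes passed the threshold. Each of these values comes from 1 library per group.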
